A study of Homo sapiens with 39 samples.

Results

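The 44 genes described here are listed targets of the transcription factor p53, taken by symbol from a list whose rule uses no measured value but which was drawn up with earlier results of these data known, and they are 44 of the 63187 genes in the count table. Each was followed through 13 treatment groups of C4-2B cells to ask whether it responded early or late, whether its response grew with dose, and whether the response was kept when an androgen receptor pathway inhibitor (ARPi) was added. All 44 had counts. Of these, 43 passed the filter on low counts in the time course and 44 in the panel, and the gene that did not pass in the time course was TNFRSF10C.

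C4-2B is a castration-resistant prostate cancer line derived from LNCaP, and every value here comes from this line in culture medium with 10% serum. In the time course, cells received vehicle (DMSO), olaparib at 1 µM or olaparib at 5 µM, and RNA was taken at day 1 and at day 5. In the panel, cells were treated for 5 days with DMSO, olaparib 1 µM, talazoparib 10 nM, abiraterone acetate 5 µM, enzalutamide 20 µM, abiraterone acetate with olaparib (Abi+Ola) or enzalutamide with talazoparib (Enz+Tala), the doses in the combinations being those of the drugs alone. Each group had 3 libraries, which makes 18 in the time course and 21 in the panel. Olaparib and talazoparib block PARP, an enzyme that marks DNA breaks for repair. Abiraterone blocks androgen synthesis, and enzalutamide blocks the response to androgens. The labels do not say whether the 3 libraries of a group came from separate cultures, so the p-values measure only the spread between these libraries, which may be technical.

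The p53 protein is held low by MDM2, which marks it for degradation, and it accumulates when the kinases that sense DNA damage modify it. It then binds DNA next to its targets and raises their transcription. The targets act at different levels of the response: inhibitors of the cell cycle, death receptors and mitochondrial death proteins, DNA repair factors, metabolic and antioxidant enzymes, and inhibitors of p53 itself, which close the loop.

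The DNA element that p53 recognizes was read from the reference genome (GRCh38) within 5000 bases of each gene's annotated start on either side. It consists of 2 adjacent 10-base elements, each with a core of C, 2 bases of A or T, and G, and a site was kept when both cores were present and at most 2 of the 20 letters differed from the p53 consensus. Both strands were covered. The tolerance of 2 was chosen after a first search had been seen. Of the 44 genes, 14 held such a site, against 4.952% of 20033 protein-coding genes. With at most 1 mismatch these were 6 of 44 against 0.879%, and with none 3 of 44 against 0.15%. Sites of other members, such as AEN and CMBL, are not shown. Of the 8 genes shown, DRAM1 was early at both olaparib doses by the rule given below and the others were late at both, so they do not stand for all members. Their sites are given 5′ to 3′ on the strand of the gene, with the 2 cores in capitals.
PTCHD4: aggCTTGcccagaCTTGccc
PLK2: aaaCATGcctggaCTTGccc
ZMAT3: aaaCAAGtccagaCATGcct
GADD45A: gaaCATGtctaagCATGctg
CDKN1A: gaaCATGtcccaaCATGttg
BTG2: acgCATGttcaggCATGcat
DRAM1: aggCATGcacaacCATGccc
SPATA18: ggaCATGtgtgtaCATGccc
The PTCHD4 site (chr6:48111198-48111217, minus strand) was centred at -10 relative to the gene's start, the PLK2 site (chr5:58462274-58462293, minus strand) at -2144, and the ZMAT3 site (chr3:179070188-179070207, minus strand) was intronic; these were the 3 without a mismatch. The GADD45A site (chr1:67686775-67686794, plus strand) was intronic and had 1 mismatch. The CDKN1A site (chr6:36676449-36676468, plus strand), with 2 mismatches, overlapped an exon of at least 1 transcript and was centred at -2256 from the nearest RefSeq start. The BTG2 site (chr1:203303642-203303661, plus strand) was upstream of the gene, and the DRAM1 (chr12:101880194-101880213, plus strand) and SPATA18 (chr4:52051957-52051976, plus strand) sites were intronic, each with 2 mismatches. A match of letters is a description and not a binding site, and a gene without one may have a site elsewhere.

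Total counts per library ran from 26932205 to 49833473 with a median of 37223200. Levels are given as CPM, counts relative to the library's total as scaled by the TMM method, and log2 fold changes carry their standard error (SE) from edgeR's quasi-likelihood fit, with p-values adjusted by the Benjamini-Hochberg method over all genes tested. A gene is called higher or lower at an adjusted p under 0.05. The 7 luminal prostate markers KLK3, KLK2, HOXB13, FOLH1, TMPRSS2, KRT8 and KRT18 were present in every library, at 13.9 CPM or more, and their levels differed between groups. KLK3 had 1409 to 1507 CPM in the panel DMSO libraries, 461 to 498 with abiraterone and 289 to 329 with enzalutamide, KLK2 98.7 to 105, 24 to 25.9 and 13.9 to 14.2, and TMPRSS2 219 to 283, 43.1 to 47.4 and 35 to 37.2, whereas FOLH1 had 766 to 798, 981 to 1013 and 1013 to 1038. TMPRSS2 was also at 391 to 433 CPM with olaparib and 399 to 458 with talazoparib, and in the time course it had 116 to 119 CPM in DMSO and 377 to 389 at 5 µM on day 5. KLK3, KLK2, KRT18 and KRT8 were also higher at 5 µM on day 5 than in DMSO, KRT8 at 502 to 526 against 252 to 261 CPM. HOXB13 (156 to 162 against 223 to 232) and FOLH1 (592 to 603 against 685 to 716) were lower there. In the panel, FOLH1 was lower than in DMSO with olaparib (653 to 669) and talazoparib (710 to 735). The basal markers KRT5 and TP63, the T cell marker CD3E and the endothelial marker PECAM1 were at or below 0.107 CPM. Of the other 7 of 11 markers of other cell types, COL1A2 did not exceed 0.0472 CPM and COL3A1 0.725 CPM, and PDGFRB had 1.04 to 2.43, COL1A1 10.5 to 22.1 and VWF 7.48 to 22.5 CPM. The macrophage marker CD68 differed between groups, from 5.52 to 6.35 CPM in DMSO at day 5 to 15.2 to 16.7 at 1 µM and 26.9 to 29.6 at 5 µM, and in the panel from 4.31 to 7.1 CPM in DMSO to 14.2 to 15.7 with olaparib and 13 to 13.6 with talazoparib, while it stayed between 2.47 and 7.2 CPM in the groups with an ARPi. At day 1, CD68 did not exceed 6.44 CPM in any group. The leukocyte marker PTPRC was at or below 0.104 CPM without an ARPi, and had 0.286 to 0.436 CPM with abiraterone, 0.33 to 0.967 with enzalutamide, 0.521 to 0.979 with Abi+Ola and 0.896 to 1.17 with Enz+Tala. The part of these markers in the results below was not tested. In bulk RNA, a change in the share of cells that express a gene and a change in RNA per cell cannot be told apart. In the panel, DMSO library C had the lowest CPM of the 3 DMSO libraries for 27 of the 44 genes.

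Olaparib raised nearly all of the p53 targets, at both doses and on both days. At day 1, 1 µM raised 38 of 43 tested members and lowered 0, where 6.3% of all genes tested were higher and 9.52% lower. At 5 µM all 43 were higher and 0 lower, against 21.6% and 23.4% of all genes. After 5 days, 1 µM raised 38 and lowered 1 (23.4% and 22.9% of all genes), and 5 µM raised 42 and lowered 1 (34.4% and 33.9%). The gene lowered at day 5 was APAF1 at both doses. The median log2 fold change of the members was 0.58 and 1.41 at day 1 and 0.59 and 1.27 at day 5, for 1 and 5 µM, and the median over all genes lay between -0.0083 and 0.015. All 3 treated libraries lay above all 3 DMSO libraries for 40 of 44 genes at 1 µM and 42 at 5 µM on day 1, and for 38 and 42 on day 5. Of all genes tested, 14.3% and 25.5% were separated in this way on day 1 and 27.1% and 35.7% on day 5. Scaled by total counts in place of TMM, the share of higher genes among all calls moved from 39.8% to 59.9% for 1 µM and from 48.0% to 60.3% for 5 µM at day 1, while 39 and 43 members were higher and 0 lower in each.

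**Figure D1:**
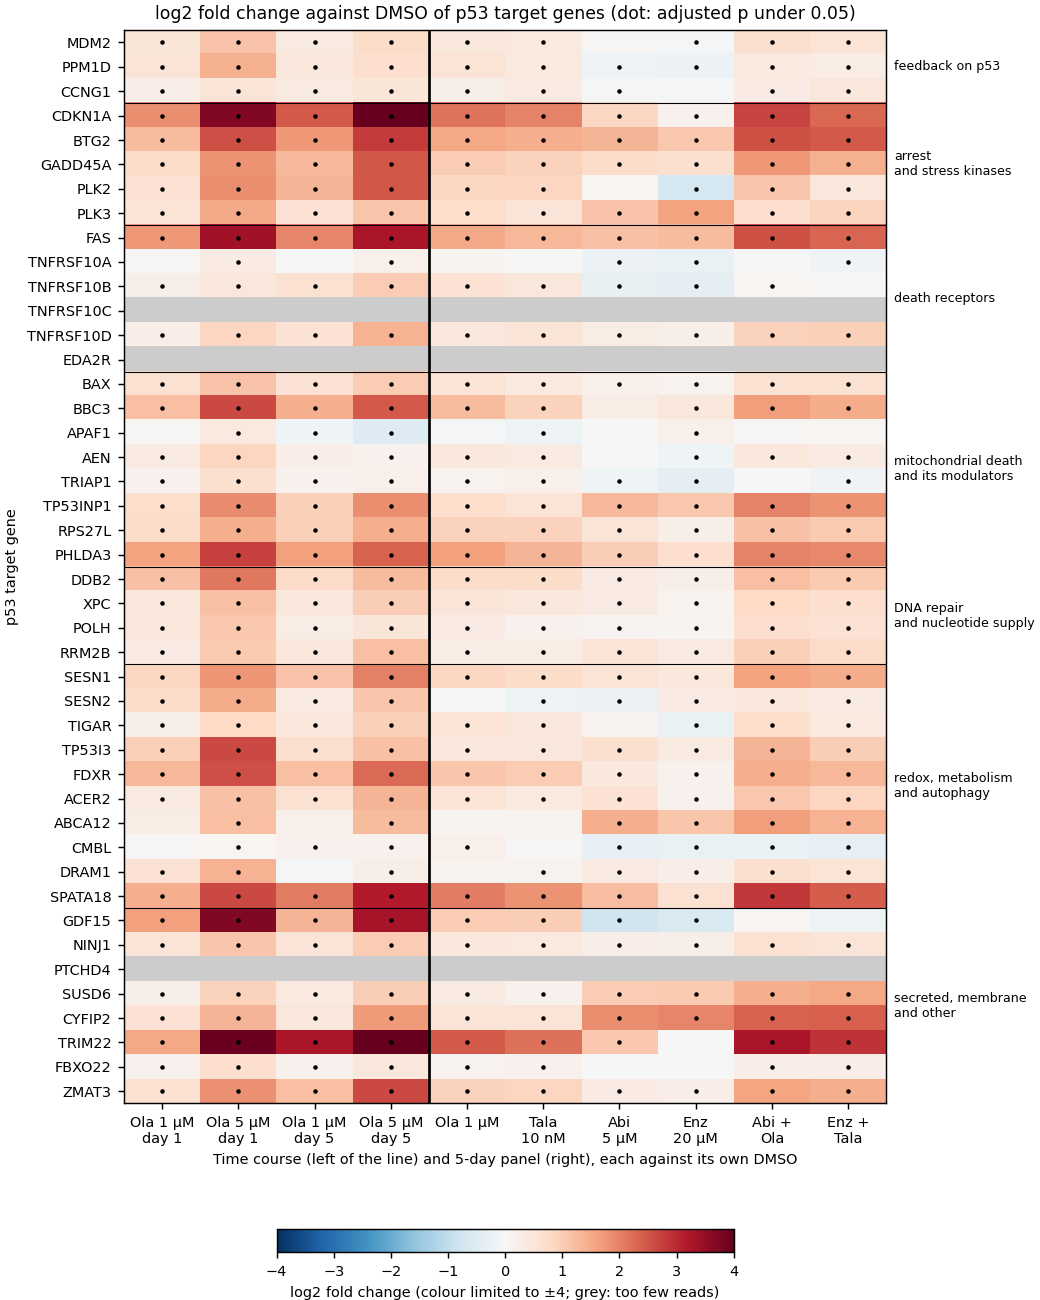
Colour gives the log2 fold change against DMSO of each p53 target (rows, grouped by role) in 4 time-course and 6 panel comparisons (columns), a dot marks an adjusted p under 0.05, and grey marks 3 genes with too few reads for a fitted fold. The 5 µM columns are the deepest red in the time course, and GDF15, TNFRSF10B and CMBL are blue in the columns of abiraterone and enzalutamide alone.

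By role, the arrest and stress kinase genes had the largest median rise at 5 µM, 1.86 at day 1 and 2.5 at day 5 on the log2 scale, although TRIM22 of another role rose more than any of them (3.96 ± 0.15 and 5.88 ± 0.13). CDKN1A encodes p21, the inhibitor of cyclin-dependent kinases through which p53 halts the cycle. Its CPM was 55.8, 54.3 and 53.9 in DMSO at day 1, 196, 201 and 201 at 1 µM and 725, 706 and 719 at 5 µM. At day 5 it was 40.4, 41.9 and 41 in DMSO, 224, 228 and 227 at 1 µM and 703, 748 and 741 at 5 µM. No library of a dose overlapped with another dose on either day, and the increase reached 13.1-fold at day 1 (log2 fold change 3.71 ± 0.025, adjusted p = 1.97e-46) and 17.8-fold at day 5 (log2 fold change 4.15 ± 0.026, adjusted p = 1.04e-47). The 5 µM libraries of the 2 days overlapped, while the DMSO level was lower at day 5 (log2 fold change -0.41 ± 0.027, adjusted p = 2.43e-14).

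BTG2, an antiproliferative transcriptional cofactor, rose from 16.1, 14.7 and 15.1 CPM in DMSO to 35, 38.4 and 37.8 at 1 µM and 89.9, 87.2 and 95.6 at 5 µM on day 1. By day 5 it stood at 18.6, 19.3 and 18.8, 64.6, 61.4 and 62.7 and 129, 134 and 129.5 CPM at 0, 1 and 5 µM (log2 fold change 2.79 ± 0.038, adjusted p = 1.66e-37 at 5 µM), again with no overlap between doses. GADD45A, a stress sensor that acts on p38 signaling and on repair, had 7.08, 7.15 and 6.78 CPM in DMSO, 11.3, 11.7 and 11.8 at 1 µM and 24.2, 23 and 25 at 5 µM on day 1. Its day 5 values were 4.41, 4.36 and 4.86, 10.6, 11.1 and 11.5 and 25.8, 26.2 and 25 CPM. The doses did not overlap on either day, the DMSO level was lower at day 5 in every library, and the fold went from 3.44 to 5.65 at 5 µM. PLK2, a polo-like kinase induced by stress, went from 3.86, 3.59 and 3.69 CPM in DMSO to 13.8, 13.9 and 12.6 at 5 µM on day 1, with 5.36, 5.45 and 5.91 at 1 µM. On day 5, PLK2 had 2.67, 2.92 and 2.7, 7.21, 6.53 and 7.43 and 14.8, 14.9 and 16.7 CPM in the order of dose (log2 fold change 2.49 ± 0.082, adjusted p = 2.24e-25 at 5 µM). PLK3, its paralog, behaved differently in time: it measured 7.67, 7.24 and 6.97, 10.1, 11.2 and 10.6 and 20.6, 21.5 and 19.9 CPM by dose at day 1 and 6.19, 7.28 and 6.23, 9.41, 10.1 and 10.05 and 14.1, 14.8 and 13.8 at day 5. Its 5 µM effect fell from 1.5 ± 0.064 to 1.12 ± 0.068 on the log2 scale between the days (adjusted p of the difference = 7.34e-04). All 5 genes of this role were higher in all 4 comparisons with DMSO.

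The 3 genes that feed back on p53 rose less. MDM2, the ubiquitin ligase of p53, had 197, 185 and 189 CPM in DMSO, 265, 273 and 260.1 at 1 µM and 409.8, 419 and 423 at 5 µM at day 1. At day 5 the values were 195, 196 and 183, 248, 248 and 248 and 314, 323 and 311 CPM. The groups did not overlap on either day, but the 5 µM effect was smaller at day 5 (0.72 ± 0.025) than at day 1 (1.13 ± 0.025), a difference of -0.41 ± 0.036 (adjusted p = 2.11e-12). PPM1D, the phosphatase WIP1 that reverses damage signaling, measured 34.1, 30.5 and 32.3, 46.7, 46.3 and 44.4 and 84.3, 82.2 and 91.2 CPM by dose at day 1 and 35.6, 38.7 and 35.4, 48.8, 47.9 and 48.7 and 56.4, 60.5 and 58.6 at day 5. Its 5 µM level thus dropped between the days while its 1 µM level did not. CCNG1, cyclin G1, which recruits a phosphatase to MDM2, had 198 to 214, 242 to 249 and 291 to 298 CPM at day 1 and 207 to 219, 266 to 279 and 293 to 301 at day 5. Its rises were the smallest of the 3, at most 0.53 ± 0.026 on the log2 scale, and they passed the test in all 4 comparisons.

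**Figure D2:**
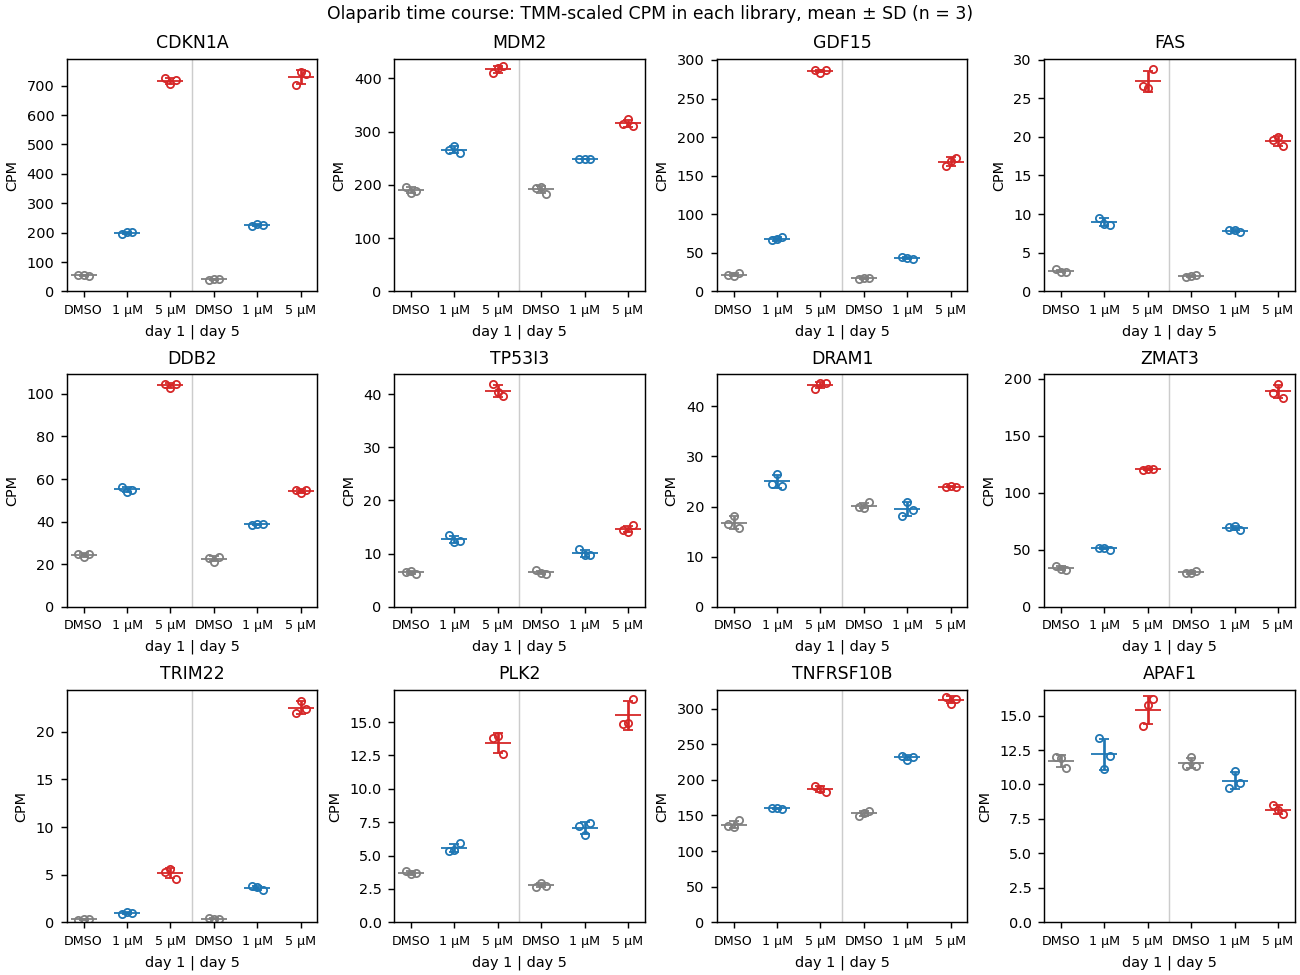
Each panel plots TMM-scaled CPM (vertical axis, from 0) of a p53 target in the 18 time-course libraries, by olaparib dose and day, with open circles for libraries and bars for the mean ± SD of 3. CDKN1A stays high at day 5, TRIM22, ZMAT3 and TNFRSF10B are higher at day 5 than at day 1 in the treated groups, and GDF15, DDB2, TP53I3 and DRAM1 are lower.

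Among the death receptors, FAS, which starts caspase activation when its ligand binds, changed most. It had 2.84, 2.57 and 2.57 CPM in DMSO, 9.52, 8.77 and 8.54 at 1 µM and 26.5, 26.3 and 28.7 at 5 µM on day 1, and 1.9, 2.06 and 2.14, 7.91, 7.99 and 7.7 and 19.7, 20.04 and 18.8 on day 5. The groups were fully separated, and the 5 µM effects of 3.35 ± 0.071 and 3.27 ± 0.076 were not called different between days (interval of the difference -0.32 to 0.14). TNFRSF10B, the TRAIL receptor DR5, responded slowly: from 134, 134 and 143 CPM in DMSO it reached 160.4, 161 and 159 at 1 µM and 192, 187 and 183 at 5 µM on day 1. Its day 5 levels were 149, 153 and 157, 234, 228 and 232 and 316, 307 and 314 CPM. Every 1 µM library at day 5 exceeded every 5 µM library at day 1, and the day difference of the 5 µM effect was 0.58 ± 0.036 (adjusted p = 2.26e-16). TNFRSF10A, the other TRAIL receptor that signals death, moved little: 29 to 29.8, 29.8 to 30.8 and 37.2 to 37.3 CPM by dose at day 1 and 29.7 to 31.2, 29.5 to 30.9 and 34.3 to 36.5 at day 5. It was called only at 5 µM (0.34 ± 0.036 and 0.21 ± 0.036). TNFRSF10D, a decoy receptor for TRAIL, rose to 39.96 to 43 CPM at day 1 and 54.8 to 56.1 CPM at day 5 under 5 µM, from 22.2 to 23.9 and 21 to 21.5 in DMSO. TNFRSF10C, the other decoy, held at most 0.308 CPM in any time-course library and was not tested there. EDA2R, a receptor of the same family for ectodysplasin, was counted in few reads: 3, 3 and 2 in the DMSO libraries and 13, 11 and 19 in the 5 µM libraries of day 5. The ratio of its CPM-scaled counts there was 6.09 (2.83 to 15), the interval covering counting error only.

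Among the genes grouped as mitochondrial death proteins and their modulators, BBC3 and PHLDA3 rose most. BBC3 encodes PUMA, which releases the block that survival proteins place on BAX. It measured 2.19, 2.03 and 1.92 CPM in DMSO, 4.49, 4.89 and 4.6 at 1 µM and 12.6, 13.1 and 12.4 at 5 µM on day 1, and 1.79, 1.76 and 1.57, 5.07, 4.39 and 4.47 and 8.74, 9.18 and 10.1 on day 5, without overlap. BAX, which forms the pore in the mitochondrial membrane, had 20.1, 20.7 and 21.8, 31, 30.7 and 33 and 46, 46.4 and 46.1 CPM by dose on day 1 and 18.9, 17.7 and 19.4, 28.2, 27.7 and 28 and 39.3, 36.4 and 37.2 on day 5. Both genes were higher in all 4 comparisons, BBC3 by up to 6.19-fold and BAX by up to 2.21-fold, and neither day difference passed the test at either dose. TP53INP1, a stress protein that promotes both autophagy and death, rose from 82.9, 77.2 and 81.9 to 133, 136 and 126 and 298, 295 and 313 CPM on day 1. It held 89.7, 92.3 and 90.3, 176, 172 and 175 and 333, 334 and 325 CPM on day 5, so its 5 µM effects (1.91 ± 0.029 and 1.87 ± 0.029) lay close together. PHLDA3, which competes with AKT for membrane lipids, reached 55.6 to 58.3 CPM at 5 µM on day 1 from 8.28 to 8.78 in DMSO, and 36.3 to 38.5 from 6.74 to 7.74 on day 5.

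APAF1, the scaffold of the apoptosome, was the exception of the list. Its CPM was 12, 11.9 and 11.2 in DMSO, 13.3, 11.1 and 12.1 at 1 µM and 14.3, 15.7 and 16.2 at 5 µM on day 1, and 11.3, 12 and 11.4, 9.76, 11 and 10.1 and 8.48, 8.14 and 7.85 on day 5. The 3 libraries of 5 µM lay above DMSO at day 1 (log2 fold change 0.40 ± 0.065, adjusted p = 3.40e-06) and below it at day 5 (log2 fold change -0.50 ± 0.071, adjusted p = 8.32e-08), and the effect differed between days by -0.90 ± 0.096 (adjusted p = 3.56e-10). The smaller fall at 1 µM on day 5 (-0.17 ± 0.068) lost its call with DESeq2 (adjusted p = 0.0786) and without any of 5 of the 6 libraries compared. AEN, a nuclease of apoptotic DNA cleavage, and TRIAP1, a mitochondrial inhibitor of death, rose less at day 5 than at day 1 under 5 µM, AEN by 0.86 ± 0.026 and then 0.18 ± 0.027, and TRIAP1 by 0.65 ± 0.031 and then 0.22 ± 0.032. At 1 µM both were higher on each day without a called day difference, AEN by 0.34 ± 0.026 and 0.25 ± 0.027 and TRIAP1 by 0.19 ± 0.032 and 0.17 ± 0.032. RPS27L, a ribosomal protein variant that regulates MDM2 and whose reads may be shared with RPS27, rose at 5 µM by 1.46 ± 0.031 and 1.46 ± 0.031.

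All 4 genes of DNA repair and nucleotide supply rose in all 4 comparisons. DDB2, the damage sensor of nucleotide excision repair, had 24.9, 23.4 and 24.6 CPM in DMSO, 56.2, 54.1 and 55.1 at 1 µM and 104, 103 and 105 at 5 µM on day 1. At day 5 it had 23.2, 21.3 and 23.4, 38.5, 38.7 and 39 and 55, 53.5 and 55.1 CPM. The 5 µM libraries of day 5 overlapped with the 1 µM libraries of day 1, and the effect was smaller at day 5 at both doses (day difference -0.41 ± 0.051 at 1 µM and -0.83 ± 0.049 at 5 µM). XPC, its partner in damage recognition, measured 58.1 to 59.6, 78.8 to 79.5 and 129 to 133 CPM by dose at day 1 and 54.2 to 56.7, 73.7 to 76.8 and 108 to 111 at day 5. POLH, the polymerase that copies past ultraviolet damage, reached 63.8 to 67.1 CPM at 1 µM and 98.1 to 103 at 5 µM from 46.5 to 48.6 on day 1, but only 51.2 to 52.6 and 58.7 to 59.6 from 40.6 to 43.4 on day 5. RRM2B, the ribonucleotide reductase subunit that p53 induces, went the other way, with 61.9 to 69.6, 77.8 to 82.9 and 131 to 134 CPM at day 1 and 66 to 68.9, 88.2 to 94.4 and 154 to 161 at day 5. Its 5 µM day difference of 0.17 ± 0.05 was called with TMM scaling, and with total-count scaling it was 0.037 and not called (adjusted p = 0.511).

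In the redox, metabolic and autophagy group, the 2 sestrins, which restrain mTOR signaling, went apart in time. SESN1 had 17.2, 17.6 and 16.4, 30.5, 30.5 and 29 and 57.3, 58 and 58.1 CPM by dose at day 1 and 16.1, 16.1 and 15.8, 34.6, 36 and 36.3 and 62, 66.6 and 64.3 at day 5. SESN2 had 16.9, 17.8 and 17.9, 27.2, 30.1 and 29.6 and 50.9, 49.1 and 48 CPM at day 1 and 17.9, 19.7 and 18.5, 21.9, 24.9 and 24.4 and 41.1, 40.4 and 38.6 at day 5. The SESN1 effect was larger at day 5 (day difference 0.34 ± 0.059 at 1 µM and 0.25 ± 0.056 at 5 µM) and the SESN2 effect smaller (-0.38 ± 0.071 and -0.39 ± 0.068), all 4 called. With total-count scaling, the SESN1 difference at 5 µM was 0.12 and not called (adjusted p = 0.0702).

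TP53I3 encodes PIG3, a quinone reductase that generates oxygen radicals. It rose from 6.54, 6.7 and 6.19 CPM in DMSO to 13.4, 12.2 and 12.4 at 1 µM and 41.9, 40.3 and 39.6 at 5 µM on day 1, and stood at 6.83, 6.31 and 6.25, 10.8, 9.76 and 9.69 and 14.5, 14.1 and 15.3 on day 5. The 5 µM libraries were lower at day 5 while the DMSO ranges overlapped, and the day difference of -1.47 ± 0.088 (adjusted p = 6.59e-17) was the largest fall among the members. DRAM1, a lysosomal protein of autophagy, measured 16.6, 18.2 and 15.6, 24.5, 26.4 and 24.1 and 43.5, 44.6 and 44.6 CPM at day 1 and 19.9, 19.8 and 20.8, 18.1, 20.9 and 19.4 and 23.9, 24.1 and 23.8 at day 5. Its rise at 1 µM on day 1 (0.57 ± 0.052) was followed by groups that overlapped on day 5 (-0.052 ± 0.053, adjusted p = 0.451). FDXR, which passes electrons to mitochondrial cytochromes P450, had 16.2 to 17, 41.2 to 42.3 and 98.1 to 99.1 CPM at day 1 and 14.5 to 14.8, 33.5 to 33.7 and 67.6 to 70.7 at day 5, with doses fully apart.

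SPATA18, a regulator of mitochondrial quality, was, like SESN1, a late gene of this group: it rose by 2.65 ± 0.067 at day 1 and 3.17 ± 0.065 at day 5 under 5 µM. TIGAR, which lowers glycolytic flux, rose by 0.80 ± 0.042 and 0.95 ± 0.042, and the ceramidase ACER2 by 1.17 ± 0.065 and 1.37 ± 0.063. ABCA12, a lipid transporter, was called at 5 µM only (1.19 ± 0.14 and 1.27 ± 0.13). CMBL, a cytosolic hydrolase, had 209 to 224 CPM in DMSO and 224 to 231 CPM at 5 µM on day 1, and its called effects did not exceed 0.17 ± 0.024.

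The remaining targets held the widest range of responses. GDF15, a secreted stress cytokine, had 21.6, 20.1 and 23.7 CPM in DMSO, 66.1, 68.3 and 70.8 at 1 µM and 287, 284 and 287 at 5 µM on day 1, and 16.2, 17.3 and 18, 45.1, 43.8 and 42 and 162, 169.7 and 173 on day 5. Its 5 µM rise was 13.1-fold at day 1 and 9.83-fold at day 5 (day difference -0.42 ± 0.063, adjusted p = 2.88e-06). TRIM22, an antiviral ubiquitin ligase also induced by interferon, had 0.256, 0.377 and 0.338 CPM in DMSO at day 1, 0.872, 1.04 and 0.973 at 1 µM and 5.25, 5.63 and 4.56 at 5 µM. On day 5 it had 0.463, 0.325 and 0.335, 3.78, 3.74 and 3.38 and 22, 23.3 and 22.4 CPM. Every treated library of day 5 exceeded those of the same dose at day 1 while the DMSO ranges overlapped, and the effect grew by 1.70 ± 0.28 at 1 µM and 1.92 ± 0.27 at 5 µM (adjusted p = 2.48e-05 and 1.36e-07).

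ZMAT3, a zinc finger protein that binds RNA and affects splicing, had 35.7, 33.1 and 32.4, 51.9, 52 and 50.2 and 119.8, 121 and 121 CPM by dose at day 1 and 29.5, 29.6 and 31.4, 69.6, 70.8 and 67.1 and 188, 196 and 184 at day 5. Both doses were higher at day 5 than at day 1 while DMSO was slightly lower (log2 fold change 0.81 ± 0.048, adjusted p = 4.54e-17 for the 5 µM day difference). PTCHD4, a protein with a patched domain, was nearly silent in DMSO, with 2, 3 and 2 counts in the day 1 libraries and 0, 1 and 2 in those of day 5. Its counts were 7, 8 and 9 at 1 µM and 28, 17 and 24 at 5 µM on day 1, and 17, 18 and 18 and 65, 61 and 60 on day 5. The ratio to DMSO was 3.27 (1.37 to 8.99) and 10.3 (4.72 to 26.5) at day 1 and 19.5 (6.31 to 97.4) and 70.3 (23.7 to 344) at day 5, for 1 and 5 µM, with 95% intervals that cover counting error only. All 4 intervals lay above 1. CYFIP2, a subunit of the actin-regulating WAVE complex, rose by 1.35 ± 0.058 and 1.69 ± 0.059 at 5 µM, the membrane proteins NINJ1 by 1.11 ± 0.029 and 1.01 ± 0.029 and SUSD6 by 0.93 ± 0.044 and 1.00 ± 0.045, and the F-box protein FBXO22 by 0.66 ± 0.031 and 0.43 ± 0.031.

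The dose step was seen in almost every member. From 1 to 5 µM, 42 of 43 rose and 0 fell at day 1 (12.8% and 15.9% of all genes), with a median step of 0.82 on the log2 scale. At day 5, 39 rose and 2 fell (26.6% and 27%), with a median of 0.73. The exception at day 1 was CMBL (0.02 ± 0.024). At day 5, TRIAP1 (0.05 ± 0.032) and CMBL (0.012 ± 0.024) had no called step, and APAF1 (-0.33 ± 0.073) and AEN (-0.068 ± 0.027) fell, AEN losing its call with DESeq2 (adjusted p = 0.0801), with no filter (0.128) and in a fit of only the groups compared (0.0516). Of the called steps, TRIM22 had the largest on both days (2.42 ± 0.12 and 2.63 ± 0.095), followed by GDF15 (2.06 ± 0.038 and 1.95 ± 0.04). Across all genes, total-count scaling moved the share of higher calls from 44.6% to 54.95% at day 1 and from 49.6% to 38.7% at day 5, with 42 and 39 members higher, as with TMM.

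The timing of the responses differed among the members. A gene is called late here when its effect against DMSO was larger at day 5 than at day 1 by the test of the difference, and early when it was smaller. At 1 µM, 17 of 43 had a larger and 7 a smaller effect at day 5, against 15.6% and 14.2% of all genes, so the count of smaller effects lay near the share of all genes. At 5 µM these were 15 and 18, against 27.2% and 27.7%. The 12 genes late at both doses were CDKN1A, BTG2, GADD45A, PLK2, TNFRSF10B, TNFRSF10D, SESN1, TIGAR, CMBL, SPATA18, TRIM22 and ZMAT3, besides PTCHD4 with its few counts. The 7 genes early at both doses were MDM2, DDB2, POLH, SESN2, TP53I3, DRAM1 and GDF15. Of all genes tested, 9.76% were late and 0.384% early at both doses on the higher side, where all of these members lie. By role, 4 of the 5 arrest and stress kinase genes were late at both doses, and of the DNA repair genes DDB2 and POLH were early at both. BTG2, SESN1, TIGAR and CMBL lost their 5 µM call with total-count scaling, and the CMBL difference then turned to -0.036. These directions were relative to the median of all genes, which total-count scaling moved from -0.022 to -0.15 for the 5 µM difference. Under it 10 members were higher and 22 lower at 5 µM, and 13 and 11 at 1 µM, and the share of higher calls among all genes moved from 49.6% to 33.2% and from 52.3% to 37.4%.

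**Figure D3:**
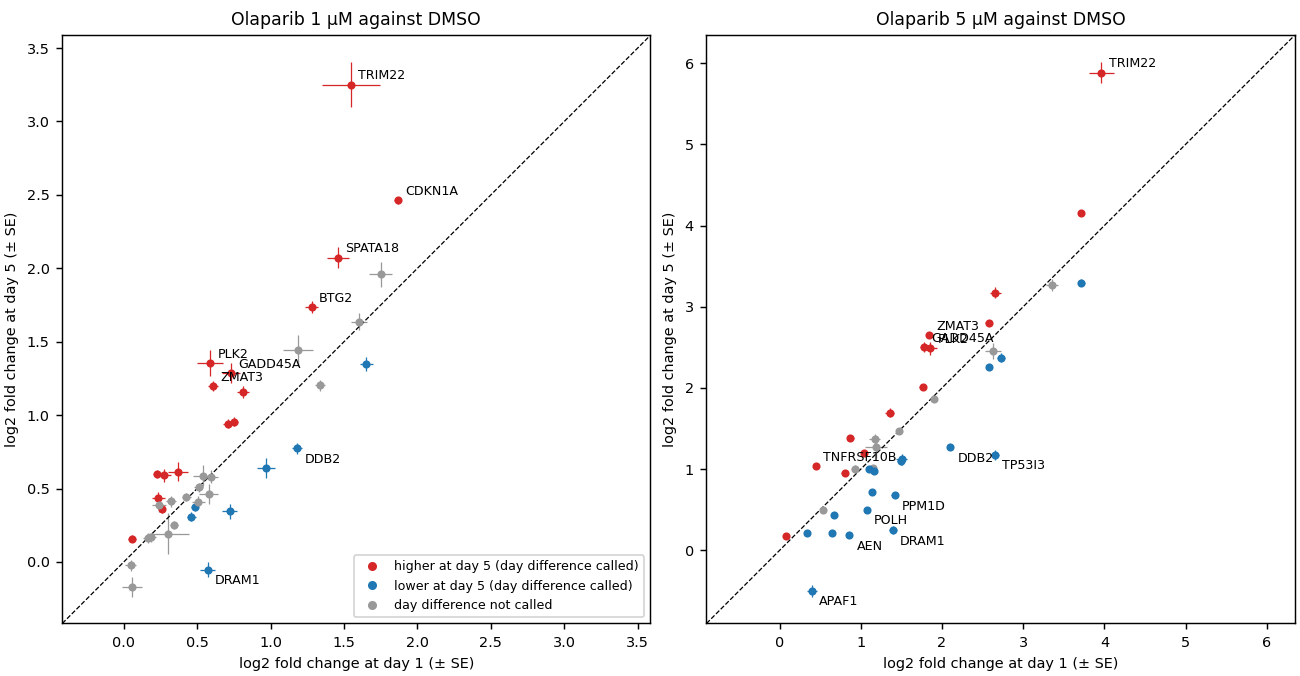
Each point is a p53 target with its log2 fold change against DMSO at day 1 (horizontal) and day 5 (vertical) with SE bars, for olaparib 1 µM (left) and 5 µM (right), and the dashed line marks equal effects. Red and blue points are those whose day difference was called: TRIM22 lies far above the line in both panels, and TP53I3, DRAM1, DDB2 and APAF1 lie below it at 5 µM.

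In DMSO alone, 5 members were higher and 14 lower at day 5 than at day 1, against 11.1% and 13.4% of all genes. The called changes with the largest size were GADD45A (-0.63 ± 0.072), PLK2 (-0.43 ± 0.097) and CDKN1A (-0.41 ± 0.027) on the lower side and BTG2 (0.31 ± 0.049), DRAM1 (0.26 ± 0.053) and PPM1D (0.18 ± 0.045) on the higher. GADD45A, PLK2 and CDKN1A were also among the late genes, whose folds are relative to DMSO of the same day. Total-count scaling gave 7 higher and 13 lower members, and moved the share of higher calls among all genes from 45.3% to 57.7%.

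The genes of the p53 pathway outside the list were described in the same fits. Of 9 tested regulators of p53, 3 rose and 3 fell at 5 µM on day 1, and 2 rose and 4 fell on day 5, where 21.6% and 23.4% of all genes rose and fell at day 1 and 34.4% and 33.9% at day 5, so these counts lay near the share of all genes. Those lower at day 5 included the checkpoint kinases CHEK1 (-2.31 ± 0.041) and CHEK2 (-1.38 ± 0.048). MDM4, which inhibits p53 together with MDM2, changed by 0.32 ± 0.052 at day 1 and -0.41 ± 0.055 at day 5. In a further list of 17 p53 targets, of which 15 were tested, 13 rose and 0 fell at 5 µM on day 1, and 11 rose and 3 fell on day 5, against the same shares of all genes. They included the cytokine LIF (3.43 ± 0.10 and 3.32 ± 0.10) and the cell cycle inhibitor SFN (3.07 ± 0.18 and 2.35 ± 0.18), which rose on both days, and PMAIP1, the death protein NOXA, which rose on day 1 (0.62 ± 0.084) and fell on day 5 (-1.29 ± 0.098). The 14 cell cycle genes of a list that p53 represses through p21 and the DREAM complex were lower in 7 cases, and CDK1 higher, at 1 µM on day 1, and all 14 were lower in the other 3 comparisons. Of all genes, 9.52% were lower and 6.3% higher at 1 µM on day 1, and 22.9% lower at 1 µM on day 5. Their median was -0.77 at 5 µM on day 1 and -2.76 on day 5, the latter with PLK1 at -3.35 ± 0.037 and CDC20 at -3.31 ± 0.036.

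The panel held olaparib 1 µM for 5 days a further time, in separate libraries with their own DMSO. It raised 37 of 44 members and lowered 0, against 19.6% and 16% of all genes, with a median of 0.54. Of the 43 genes tested in both experiments, 37 were higher in both, against 16.1% of all genes tested in both, 0 were called in opposite directions and 2 were called in the time course only. The log2 fold changes had a Pearson correlation of 0.965 across the 43 genes, which share their libraries and are not independent replicates, and the median difference, panel minus time course, was -0.049. The differences of the larger effects were a lower panel value for TRIM22 (2.45 against 3.25), PLK2 (0.84 against 1.35) and FAS (1.51 against 1.96). SESN2 rose in the time course (0.34 ± 0.051) and measured 0.0022 ± 0.055 in the panel. The difference between the experiments was not tested.

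Talazoparib 10 nM raised 37 and lowered 2 of 44 members, against 18.4% and 15.4% of all genes, with a median of 0.44. The lowered genes were APAF1 (-0.20 ± 0.075) and SESN2 (-0.21 ± 0.055). The APAF1 call was lost without DMSO library B or C or talazoparib library B (adjusted p = 0.133, 0.0646 and 0.0816). The largest rises after PTCHD4 were in TRIM22 (2.21 ± 0.25), CDKN1A (1.98 ± 0.053) and SPATA18 (1.80 ± 0.088), and under olaparib in TRIM22 (2.45 ± 0.25), CDKN1A (2.18 ± 0.053) and SPATA18 (2.03 ± 0.087). The doses of the 2 drugs differ and their values are given side by side. With total-count scaling, the share of higher calls among all genes moved from 55.1% to 43.0% for olaparib and from 54.5% to 39.99% for talazoparib, while 37 and 35 members were higher.

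More members rose than fell with an ARPi alone, and the counts of lower members did not exceed the share of all genes. Abiraterone raised 27 and lowered 8 of 44 (25.8% and 27.1% of all genes, median of the members 0.34), and enzalutamide raised 29 and lowered 10 (27% and 26.3%, median 0.21). Without single libraries the enzalutamide rises ran from 22 to 29, and with total-count scaling abiraterone had 30 higher and 6 lower and the share of higher calls among all genes moved from 48.7% to 60.02%. After PTCHD4, the largest rises were in CYFIP2 (1.87 ± 0.068), ABCA12 (1.45 ± 0.13) and BTG2 (1.36 ± 0.082) under abiraterone and in CYFIP2 (1.96 ± 0.067), PLK3 (1.62 ± 0.10) and FAS (1.28 ± 0.11) under enzalutamide. GDF15 (-0.79 ± 0.15), CMBL (-0.32 ± 0.036) and TNFRSF10B (-0.31 ± 0.027) fell most under abiraterone, and PLK2 (-0.70 ± 0.11), GDF15 (-0.60 ± 0.15) and TRIAP1 (-0.39 ± 0.04) under enzalutamide. In a fit of only the groups compared, both GDF15 falls lost their call (adjusted p = 0.0543 and 0.0998), and so did the CDKN1A rise under enzalutamide (0.18 ± 0.056 in the fit of all groups, adjusted p = 0.103 in that fit).

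Against DMSO, Abi+Ola raised 37 and lowered 1 of 44 members (31.1% and 31.1% of all genes), with a median of 1.01. Enz+Tala raised 36 and lowered 3 (31.2% and 31.3%), with a median of 0.83. CMBL was lower in both (-0.26 ± 0.036 and -0.34 ± 0.035), and TNFRSF10A (-0.14 ± 0.051) and TRIAP1 (-0.13 ± 0.039) in Enz+Tala. The call of TNFRSF10A was lost with total-count scaling (adjusted p = 0.0811), with no filter (0.0983) and without any of DMSO library A or B or Enz+Tala library A or B (0.0576 to 0.0632), and that of TRIAP1 without Enz+Tala library C (0.0504). After PTCHD4, the largest rises were in TRIM22 (3.27 ± 0.25), SPATA18 (2.82 ± 0.085) and CDKN1A (2.70 ± 0.053) with Abi+Ola and in TRIM22 (2.90 ± 0.25), BTG2 (2.45 ± 0.076) and SPATA18 (2.43 ± 0.085) with Enz+Tala. The plot of panel levels includes genes that were higher in each combination than with either of its drugs. CDKN1A had 58.2, 57.3 and 46.8 CPM in DMSO, 239, 238 and 256 with olaparib, 94.1, 97.5 and 93.2 with abiraterone and 346, 353 and 355 with both. With talazoparib it had 217, 211 and 212, with enzalutamide 58.9, 62.8 and 61.5 and with both 268, 265 and 267. Each combination lay above both of its drugs in every library. FAS had 3.19, 3.06 and 2.36 CPM in DMSO, 8.56, 7.85 and 7.93 with olaparib, 6.89, 5.37 and 6.93 with abiraterone and 15.7, 17.4 and 17 with both, and 7.06, 6.75 and 7.5, 6.34, 7.05 and 7.21 and 14.4, 14.3 and 14 with talazoparib, enzalutamide and both. It too was highest in the combinations, without overlap with their single drugs. TP53INP1 had 87.2 to 103 CPM in DMSO, 156 to 159.6, 236 to 239.6 and 367 to 395 with olaparib, abiraterone and both, and 136 to 146, 198 to 204 and 329.99 to 335 with talazoparib, enzalutamide and both. Here the ARPi alone gave higher levels than the PARP inhibitor alone. BTG2 followed with 12.5 to 15.6, 39.7 to 44.2, 34.8 to 38.6 and 79.3 to 85.6 CPM, and 38.7 to 40.2, 27.8 to 34.1 and 74.8 to 81.6 CPM, in the same order.

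**Figure D4:**
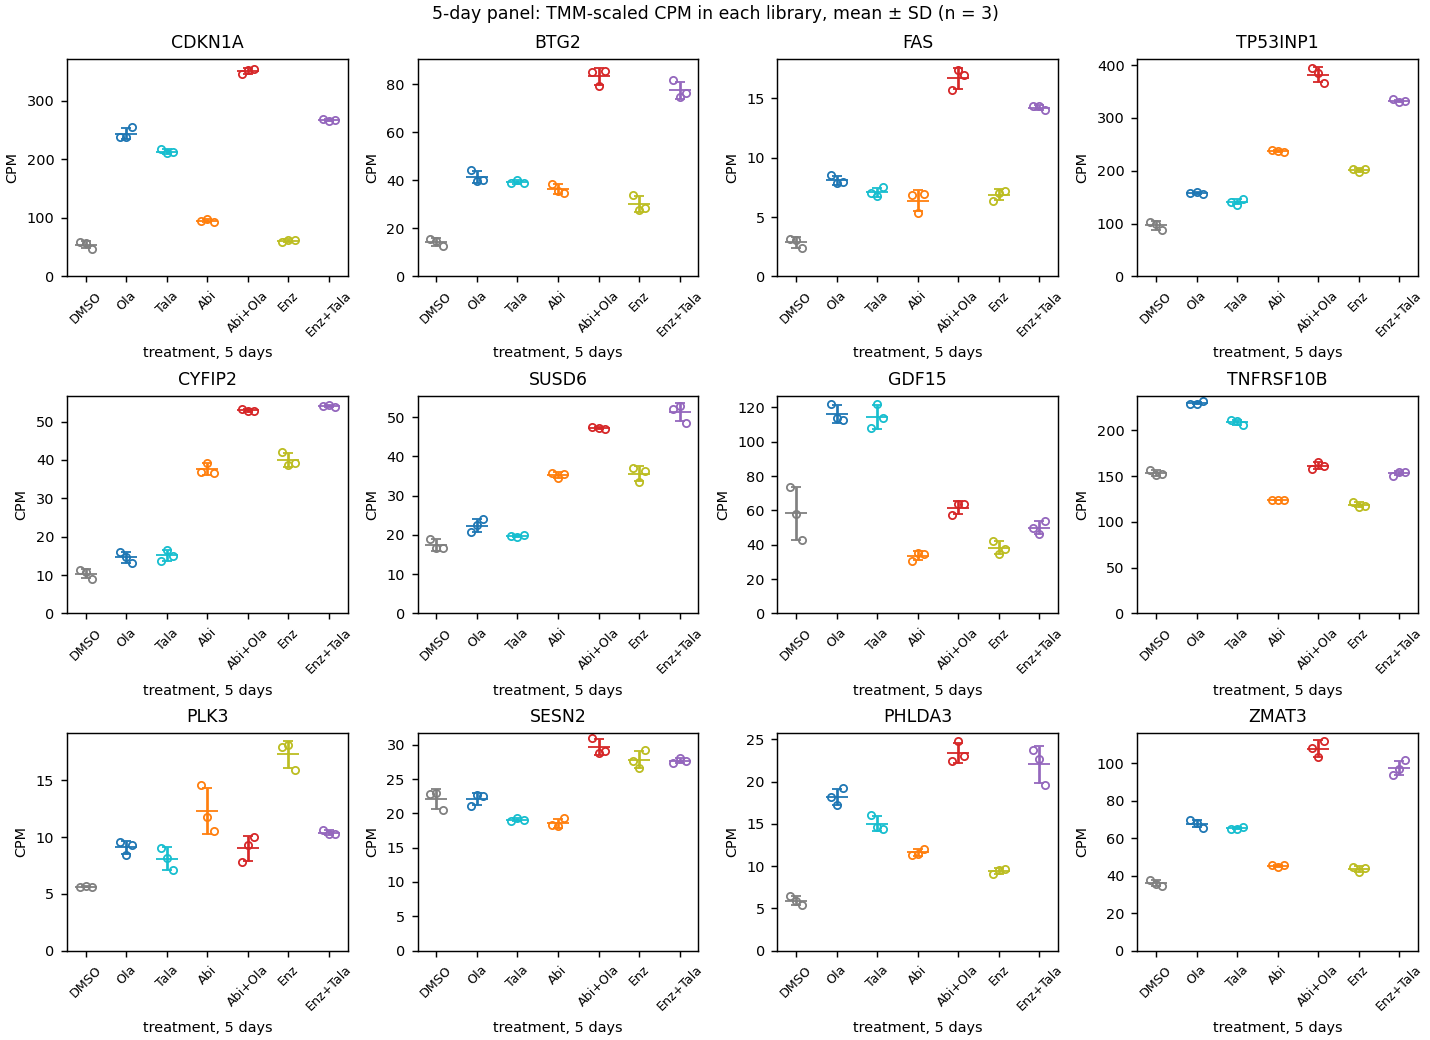
Each panel plots TMM-scaled CPM (vertical axis, from 0) of a p53 target in the 21 panel libraries by treatment, with open circles for libraries and bars for the mean ± SD of 3. CDKN1A, BTG2, FAS and TP53INP1 are highest in the combinations, GDF15 and TNFRSF10B are lower with each ARPi than in DMSO, and PLK3 is highest with enzalutamide alone.

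The question of whether the response to a PARP inhibitor is kept under an ARPi was addressed by comparing each combination with its ARPi alone. Olaparib added to abiraterone raised 38 and lowered 1 of 44 members, against 14.4% and 14.7% of all genes, with a median of 0.59. Talazoparib added to enzalutamide raised 35 and lowered 1, against 16.5% and 17.9%, with a median of 0.58. In each pair, 35 members were higher both without and with the ARPi, against 8.49% of all genes for olaparib and abiraterone and 9.25% for talazoparib and enzalutamide. The lowered gene was PLK3 in both. Genes called under a PARP inhibitor alone but not on top of the ARPi were CMBL for olaparib and APAF1, SESN2 and GDF15 for talazoparib. The interaction was called for none of these 4, so a loss of response was not shown, although with DESeq2 it was called for CMBL (adjusted p = 0.0331), SESN2 (0.049) and GDF15 (0.0208), and for GDF15 also without DMSO library A (0.0035). SESN2, DRAM1 and TNFRSF10A were not called with olaparib alone and were higher on top of abiraterone, the DRAM1 and TNFRSF10A interactions not being called (0.16 ± 0.084 and 0.12 ± 0.074).

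The interaction term tests whether the log2 effect of the PARP inhibitor with the ARPi differs from its log2 effect without. For abiraterone and olaparib, 5 members had a larger and 7 a smaller log2 effect, against 4.74% and 8.08% of all genes. With a filter of 1 CPM 8 were larger and 7 smaller, with DESeq2 8 and 8, and without DMSO library C 8 were larger, so these data do not show that more members had a smaller effect. For enzalutamide and talazoparib these were 7 and 1, against 5.32% and 7.28%, and total-count scaling gave 9 and 1, with the share of higher calls among all genes going from 42.2% to 56.3%. MDM2 (0.15 ± 0.041 and 0.21 ± 0.041), POLH (0.24 ± 0.062 and 0.32 ± 0.061) and ZMAT3 (0.33 ± 0.057 and 0.30 ± 0.056) were larger in both pairs. CDKN1A (-0.29 ± 0.073), BTG2 (-0.35 ± 0.11), TNFRSF10B (-0.20 ± 0.038), RPS27L (-0.28 ± 0.051), PHLDA3 (-0.62 ± 0.11) and SPATA18 (-0.46 ± 0.12) were smaller with abiraterone while still higher in the combination than with abiraterone alone. The BTG2 call was lost in 11 of 21 fits that left out a library. The CDKN1A call was lost in a fit of only the groups compared (adjusted p = 0.0972).

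PLK3 turned its direction. It had 5.6, 5.65 and 5.57 CPM in DMSO, 9.56, 8.44 and 9.31 with olaparib, 14.6, 11.8 and 10.6 with abiraterone and 7.78, 9.26 and 9.97 with both. With talazoparib it had 9.07, 8.11 and 7.06, with enzalutamide 17.9, 18.1 and 15.9 and with both 10.6, 10.3 and 10.2. Each drug alone raised it, and each combination was lower than its ARPi alone (log2 fold change -0.45 ± 0.10, adjusted p = 7.96e-04 for Abi+Ola and log2 fold change -0.73 ± 0.095, adjusted p = 1.90e-07 for Enz+Tala). The interactions were -1.15 ± 0.15 and -1.25 ± 0.14 (adjusted p = 1.73e-06 and 2.54e-07).

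GDF15 and TNFRSF10B were pulled in opposite directions by the 2 drug classes. GDF15 had 73.6, 58.1 and 42.9 CPM in DMSO, where the libraries were wide apart, 122, 114 and 112 with olaparib, 30.5, 35.2 and 34.8 with abiraterone and 57, 63.9 and 63.6 with both. With talazoparib it had 108, 122 and 114, with enzalutamide 42.3, 34.9 and 37.8 and with both 49.9, 46.2 and 53.7. The combinations overlapped with DMSO and were not called against it (0.093 ± 0.14 and -0.21 ± 0.14). On top of abiraterone olaparib raised it (log2 fold change 0.88 ± 0.15, adjusted p = 3.61e-04), and on top of enzalutamide the rise with talazoparib was 0.39 ± 0.14 with an adjusted p of 0.0515, which passed with DESeq2 (0.02), with RLE scaling (0.048), with a filter of 1 CPM (0.0392) and in a fit of only the groups compared (0.00611). TNFRSF10B had 157, 151 and 153 CPM in DMSO, 229, 229 and 231 with olaparib, 124, 123 and 124 with abiraterone and 158, 165 and 161 with both. Its levels were 211, 209.7 and 205 with talazoparib, 122, 116 and 118 with enzalutamide and 151, 155 and 155 with both. Every combination library lay above its ARPi libraries and below its PARP inhibitor libraries. Against DMSO the change was 0.072 ± 0.027 with Abi+Ola, which was called higher, and -0.0015 ± 0.027 with Enz+Tala, which was not called.

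**Figure D5:**
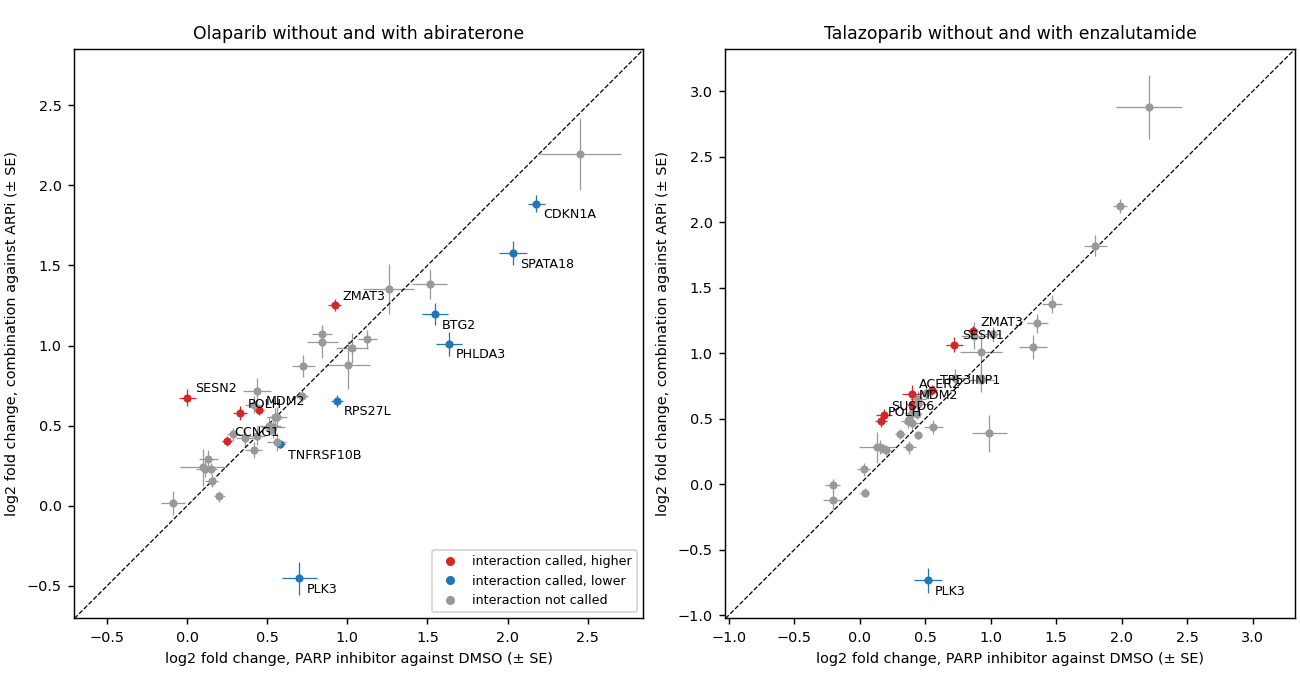
Each point is a p53 target with the log2 fold change of the PARP inhibitor against DMSO (horizontal) and of the combination against the ARPi (vertical) with SE bars, for olaparib with abiraterone (left) and talazoparib with enzalutamide (right), and the dashed line marks equal effects. Most points lie near the line, and PLK3 lies below 0 on the vertical axis in both panels.

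Seen from the PARP inhibitor, adding abiraterone to olaparib raised 31 and lowered 5 of 44 members (27.3% and 29.3% of all genes), and adding enzalutamide to talazoparib raised 32 and lowered 6 (29.1% and 29.7%). CYFIP2 rose most in both (1.86 ± 0.062 and 1.84 ± 0.06) and GDF15 fell most (-0.91 ± 0.13 and -1.20 ± 0.13). With total-count scaling the shares of higher calls among all genes moved from 48.2% to 59.9% and from 49.5% to 60.1%, with 33 members higher in each and 3 in place of 5 lower when abiraterone was added.

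The other members whose levels were followed in the panel are given by their range in the order DMSO, olaparib, abiraterone, Abi+Ola, talazoparib, enzalutamide and Enz+Tala. In the feedback group, MDM2 had 178 to 180.4, 239 to 249.6, 183 to 189.9, 281 to 283, 231 to 239.8, 165 to 178 and 249 to 268 CPM. PPM1D had 25.9 to 30.5, 39.9 to 42.5, 24.7 to 25.6, 34.8 to 38.9, 36.5 to 37.9, 23.3 to 24.7 and 34.3 to 36.2 CPM, and CCNG1 had 217 to 237, 264 to 275, 208 to 219, 280.1 to 290.3, 283 to 307, 214 to 226 and 301 to 316 CPM. Against DMSO, the MDM2 change was 0.054 ± 0.029 with abiraterone alone, which was not called, and -0.069 ± 0.029 with enzalutamide alone. MDM2 was above both single drugs in each combination, whereas PPM1D in the combinations did not exceed the PARP inhibitor alone. Of the arrest genes, GADD45A had 4.48 to 6.25, 10.2 to 12.4, 8.98 to 9.45, 17.2 to 18.8, 9.07 to 11.4, 8.16 to 9.03 and 13.9 to 15.9 CPM, and PLK2 had 4.94 to 5.09, 8.76 to 9.19, 5.26 to 5.48, 9.7 to 11.5, 8.7 to 9.75, 2.61 to 3.37 and 6.16 to 7.2 CPM. PLK2 was below DMSO with enzalutamide and not with abiraterone, a difference that was not tested.

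Among the receptors and death genes, TNFRSF10A had 24.5 to 25.9, 26.9 to 27.6, 19.9 to 22.6, 24.9 to 26.3, 24.8 to 26.5, 20.8 to 21.7 and 22.8 to 23.5 CPM, so the ARPi libraries lay below DMSO. EDA2R did not exceed 0.507 CPM in any panel library and passed the test in no panel comparison. The same was so of TNFRSF10C (at most 0.493 CPM), apart from a rise of enzalutamide with talazoparib over talazoparib alone that DESeq2 did not call (adjusted p = 0.0643). BAX had 15.7 to 16.6, 22.4 to 25.1, 18.2 to 19.95, 23.9 to 26.7, 21 to 21.9, 17.5 to 19 and 24.6 to 25.6 CPM. BBC3 had 1.47 to 1.83, 3.53 to 4.24, 1.63 to 2.48, 4.75 to 5.57, 2.84 to 3.32, 2.03 to 2.67 and 3.98 to 5.16 CPM, and APAF1 had 13.3 to 14.4, 11.9 to 14.3, 12.3 to 15.2, 13.7 to 14.8, 11.7 to 12.2, 15.8 to 15.9 and 13.4 to 15.6 CPM. BBC3 was highest in the combinations, and APAF1 with abiraterone, olaparib or both overlapped with DMSO.

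Of the repair genes, DDB2 had 19.9 to 24.1, 34 to 36.8, 25 to 30.6, 48.8 to 50.5, 32.9 to 38.5, 24.9 to 26.9 and 43.2 to 46.6 CPM. XPC had 57.3 to 61.1, 83.8 to 84.8, 72.6 to 75.1, 102 to 104, 77 to 82.1, 63.1 to 66.5 and 90.8 to 95.9 CPM. POLH had 34.9 to 35.7, 41.8 to 46.6, 37.3 to 38.6, 55.4 to 58.2, 38.5 to 40.9, 36.4 to 40.4 and 52.2 to 54.2 CPM, and in all 3 genes, as in RRM2B, each combination lay above both of its drugs in every library. RRM2B had 72.8 to 80.5, 90.5 to 95.3, 106 to 113, 141 to 154, 90.8 to 97.3, 93.1 to 102 and 126 to 132 CPM. In the metabolic group, SESN1 had 14 to 17.3, 26.2 to 29.5, 22.7 to 23.2, 46.8 to 49.1, 25.6 to 26.6, 20.02 to 22.9 and 42.3 to 45.6 CPM, and SESN2 had 20.4 to 23, 21.1 to 22.6, 18.1 to 19.3, 28.8 to 31, 18.9 to 19.3, 26.7 to 29.2 and 27.4 to 28.1 CPM. SESN2 was lower with abiraterone and higher with enzalutamide than in DMSO (-0.25 ± 0.056 and 0.34 ± 0.053), and in the panel it was called with olaparib only in the presence of abiraterone (interaction 0.67 ± 0.078, adjusted p = 1.43e-07).

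TP53I3 had 7.34 to 9.23, 10.4 to 11.7, 12.1 to 13.9, 19.6 to 22.5, 10.6 to 12, 9.6 to 11.4 and 15.7 to 17.6 CPM in the same order. FDXR had 13 to 15.9, 29.5 to 32.9, 18.8 to 20.2, 39 to 40.9, 28.5 to 29.7, 15.2 to 17 and 35 to 37.1 CPM. FDXR was higher with each PARP inhibitor than with each ARPi, and TP53I3 was highest in Abi+Ola. ZMAT3 had 34.3 to 37.4, 65.6 to 69.5, 44.4 to 45.8, 103 to 112, 64.7 to 65.8, 41.8 to 44.6 and 93.9 to 102 CPM. TRIM22 had 0.233 to 0.583, 1.89 to 2.82, 0.572 to 1.14, 3.42 to 4.57, 1.86 to 2.14, 0.377 to 0.503 and 2.99 to 3.4 CPM, and enzalutamide alone left it in the DMSO range. PTCHD4 had 0, 1 and 2 counts in DMSO, 17, 28 and 19 with olaparib, 3, 4 and 6 with abiraterone and 20, 28 and 18 with both. Its ratio to DMSO was 20.3 (6.66 to 101) with olaparib, 4.55 (1.25 to 24.9) with abiraterone and 23.4 (7.67 to 116) with both, and 12.4 (3.97 to 62.4), 4.22 (1.18 to 22.9) and 18.8 (6.16 to 93.2) with talazoparib, enzalutamide and both.

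The cell cycle genes that p53 represses were followed in the panel too, where their changes differed between the PARP inhibitors and the ARPi. All 14 fell with olaparib and with talazoparib (medians -0.46 and -0.43), 9 fell and 2 rose with abiraterone, and 2 fell and 2 rose with enzalutamide. Of all genes, 16% fell with olaparib and 15.4% with talazoparib, 27.1% fell and 25.8% rose with abiraterone, and 26.3% fell and 27% rose with enzalutamide, so the enzalutamide counts did not exceed the share of all genes. In the combinations 13 fell with Abi+Ola and 12 with Enz+Tala, against 31.1% and 31.3% of all genes, with 1 higher in each, CDK1 (0.096 ± 0.038 and 0.23 ± 0.038). Their part in the results for the members was not tested.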

How the data were processed

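RNA was measured by stranded, paired-end sequencing of mRNA from C4-2B cells in 39 libraries. Trim Galore, STAR and Salmon were the tools named by the authors for trimming, alignment (GRCh38) and gene-level quantification, with GENCODE gene models. The table the authors deposited holds Salmon's estimated counts, all of them whole numbers and none of them normalized; how they were rounded is not given in the sources used here. Of 63187 gene IDs, 62666 were paired with a symbol. No column belonged to other samples.

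The time course and the panel were fitted separately (edgeR 4.0.16, R 4.3.3; scaling by TMM, filterByExpr by group, robust quasi-likelihood fit, no covariates), on 18502 genes in the time course and 18625 in the panel, with Benjamini-Hochberg adjustment over all genes tested and a threshold of 0.05. Contrasts were treatment against DMSO, dose against dose, day differences of effects, and drug interactions. Where libraries of a group held at most 3 counts, a ratio of summed counts with an exact 95% interval was given in place of a fitted fold. Chi-square per degree of freedom between replicates lay between 2.50 and 5.37, so no library was counted as a duplicate. Total counts between 26932205 and 49833473 set the precision; intervals on counts cover counting error only. Alternatives were other scalings, filters, DESeq2 1.42.0, fits of only the groups compared, a replicate block and leaving out each library. The scripts were tested on simulated data.

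All 44 members are accounted for. By rule, values per library or group were due for 28 of them, and other members could be named among the 3 largest called rises or falls of a comparison; members named beyond these were chosen after their values were seen. The members and lists were chosen with earlier results of these data known. Lists of p53 regulators, further targets, repressed cell cycle genes and cell markers were described by counts and medians. Of these lists, 3 genes are not reported here.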

Additional observations from a re-analysis of the deposited data

Results flagged for a closer look

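The following differences between days or between drug backgrounds passed the test of the difference itself, edgeR's quasi-likelihood test of an interaction with Benjamini-Hochberg adjustment over all genes, which is what brought them here. At 1 µM olaparib, the effect against DMSO was larger at day 5 than at day 1 for 17 of 43 p53 targets, by 1.70 on the log2 scale for TRIM22, 0.77 for PLK2 and 0.62 for SPATA18. It was smaller for 7, by -0.62 for DRAM1, -0.41 for DDB2 and -0.38 for SESN2. At 5 µM, the effect was larger at day 5 for 15, by 1.92 for TRIM22, 0.81 for ZMAT3 and 0.72 for GADD45A. The GADD45A level at 5 µM changed little, from 23 to 25 CPM at day 1 to 25 to 26.2 at day 5. Its DMSO level was lower at day 5, at 4.36 to 4.86 against 6.78 to 7.15 CPM. The 5 µM effect was smaller for 18, by -1.47 for TP53I3, -1.15 for DRAM1 and -0.90 for APAF1, where APAF1 also turned from a rise to a fall. Of all genes, 15.6% had a larger and 14.2% a smaller effect at 1 µM and 27.2% and 27.7% at 5 µM, so the 7 smaller effects at 1 µM lay near the share of all genes. Total-count scaling gave 13 larger and 11 smaller at 1 µM and 10 and 22 at 5 µM.

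In the panel, the log2 effect of olaparib was larger with abiraterone than without for 5 of 44 targets, among them SESN2 (0.67), ZMAT3 (0.33) and POLH (0.24). It was smaller for 7, among them PLK3 (-1.15), PHLDA3 (-0.62) and SPATA18 (-0.46). PHLDA3 and SPATA18 were still higher in the combination than with abiraterone alone, and PLK3 was lower. A log2 effect is relative to the level without the PARP inhibitor, which can differ with an ARPi, so these values do not compare rises in CPM. The log2 effect of talazoparib was larger with enzalutamide for 7, among them SUSD6 (0.34), SESN1 (0.34) and POLH (0.32), and smaller for 1, PLK3 (-1.25). Of all genes, 4.74% had a larger and 8.08% a smaller effect in the first pair and 5.32% and 7.28% in the second, so the count of 1 lay below the share of all genes. Groups of 3 libraries were too small to be screened for outlying samples.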

How the results depend on the processing

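Over 915 pairs of a p53 target and a comparison, of which 718 were called, total-count scaling lost 19 calls and added 20 besides the turned pairs below, and RLE scaling lost 3 and added 3. Without a filter on low counts 11 were lost and 4 added. The other settings gave no result for some pairs of PTCHD4, EDA2R and TNFRSF10C. DESeq2 lost 15 and added 11 of 905 compared, a filter of 1 CPM 2 and 12 of 870, and fits of only the groups compared 19 and 7 of 892, and the pairs without a result held 2, 13 and 3 further calls. Total-count scaling turned the direction of the 5 µM day difference of CMBL (-0.036, from 0.095) and RPS27L (-0.13, from 0.00037). Counts of members that moved were these. The larger effects in the interaction of abiraterone and olaparib went from 5 to 8 with the 1 CPM filter and 8 with DESeq2, and from 4 to 8 over libraries left out, 8 being without DMSO library C. The smaller effects in the interaction of enzalutamide and talazoparib went from 1 to 2 with DESeq2 and from 1 to 2 over libraries left out (2 without DMSO library A). The members that fell from 1 to 5 µM at day 5 went from 2 to 1 with DESeq2, without the filter and with only the groups compared, and 1 to 2 over libraries left out (1 without any day 5 library of 5 µM, or of 1 µM other than library 1). The members lower at 1 µM on day 5 went from 1 to 0 with DESeq2 and 0 to 1 over libraries left out (0 without any DMSO library or without 1 µM library 1 or 3). The members lower with talazoparib were 1 to 2 (1 without DMSO library B or C or talazoparib library B). With total-count scaling, 3 in place of 5 were lower when abiraterone was added to olaparib, and 11 in place of 7 had a smaller 1 µM effect at day 5. The causes were not tested.

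Same-numbered libraries did not deviate together (correlations of -0.13 to 0.127 in the time course and -0.081 to 0.073 in the panel). The labels do not say whether the numbers pair the samples, and these correlations cannot show that they do not. With a replicate block, 4 calls were lost and 2 added, and the members higher at 1 and 5 µM were 38 and 43 at day 1 and 38 and 42 at day 5, as without it. Depth limits PTCHD4, EDA2R and TNFRSF10C, whose libraries held few counts.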
